A study of Mus musculus with 10 samples.

Results

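The immediate early AP-1 and EGR factors followed here were 10 genes: Fos, Fosb, Jun, Junb, Jund, Egr1, Egr2, Egr3, Atf3 and Ier2. They were taken by symbol, as the genes of the read-count table that stand on a list of immediate early transcription factors. All 10 were found among the 24015 genes of the table, and each was followed across all 10 libraries.

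Immediate early genes are transcribed within minutes of a signal from growth factors, cytokines or stress, without new protein synthesis, and their transcripts are short-lived. FOS and JUN proteins pair through leucine zippers to form AP-1, ATF3 pairs with them through the same kind of zipper, and the EGR proteins bind GC-rich DNA through zinc fingers. In myeloid cells AP-1 and EGR factors are known for their part in the programs of maturing monocytes, macrophages and granulocytes.

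RNA sequencing was run on total RNA of MAF9 cells, bone marrow cells of C57BL/6 mice transduced with MLL-AF9, a fusion of the MLL gene found in acute leukemia. All cultures were grown in IMDM with fetal bovine serum at 15% and interleukin-3 at 10 ng/ml, and were treated for 4 days. The 5 groups were DMSO as the control, MM-401, which blocks the contact of MLL1 with WDR5, EPZ5676, an inhibitor of the methyltransferase DOT1L, MI-2-2, which blocks the contact of menin with MLL, and iBET, an inhibitor of BET bromodomain proteins. Each inhibitor was used at its own IC50, and each group had 2 libraries, described by the submitters as biological duplicates. As a model, these were cells driven by an introduced oncogene and kept in interleukin-3, sampled at 1 time only, so the first minutes and hours after an inhibitor was added were not measured.

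The libraries held 20394762 to 29473127 counted reads: 23717378 and 20394762 in DMSO, 22656926 and 23187667 for MM-401, 21249483 and 23505117 for EPZ5676, 23793470 and 29473127 for MI-2-2, and 21875517 and 25401181 for iBET. Levels are given as CPM, reads scaled to library size, on the scale of the trimmed mean of M-values (TMM), on which 1 read stood for 0.0365 to 0.0485 CPM. Of the 24015 genes, 17450 had a read and 12971 passed the filter on low counts, and all 10 members passed. A gene was called where its Benjamini-Hochberg adjusted p over the 12971 genes was below 0.05 in the quasi-likelihood test of edgeR. Of the markers of the labelled type, all 9 genes of the progenitor and leukemia list (Kit, Cd34, Hoxa9, Meis1, Mpo, Elane, Prtn3, Ptprc and Spi1) had reads in every library. Cd34 was low, at 0.934 and 1.87 CPM in DMSO and 0.0970 CPM in EPZ5676 replicate 1, and the most abundant was Elane in DMSO replicate 1 at 4194 CPM and Mpo in DMSO replicate 2 at 4816 CPM.

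The DMSO libraries stood apart from each other. Of 11391 genes, 15.8% differed more than 2-fold between DMSO replicate 1 and DMSO replicate 2. Between the MM-401 libraries 1.41% of 11211 genes did, and between those of EPZ5676 3.91% of 11713. The shares were 4.29% of 11642 genes between the MI-2-2 libraries and 1.60% of 10917 between those of iBET. DMSO replicate 2 also had Y-linked transcripts, with Ddx3y at 64.5 CPM, Eif2s3y at 61.1 CPM, Kdm5d at 28.6 CPM and Uty at 19.8 CPM, and Xist at 4.65 CPM, whereas Xist lay between 1026 and 2817 CPM in the other 9 libraries. Mpo stood at 386 and 4816 CPM in the 2 DMSO libraries. Each of these Y-linked genes had at most 1 read in any of the other 9 libraries. By these transcripts DMSO replicate 2 was of male cells and the other 9 libraries were of female cells. The DMSO libraries thus differed in sex, and only DMSO replicate 1 matched the inhibitor libraries in it. Which culture DMSO replicate 2 came from is not given in the sources used here, and it enters every fold change against DMSO. Of the members, Fos, Fosb and Egr1 differed more than 2-fold between the DMSO libraries, by 3.48-fold, 31.2-fold and 4.28-fold. When a DMSO library was left out, the sign of the log2 fold change against DMSO changed for 6 of the 10 members with MM-401, 5 with iBET and 1 (Fosb) with each of EPZ5676 and MI-2-2. Those values and the changed calls of the members against DMSO are given below with each gene. Without DMSO replicate 1, more of all genes were called against DMSO with each inhibitor than on all libraries. That fit keeps only DMSO replicate 2 as control, and list counts from it below cannot be set against shares from all libraries.

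After 4 days with EPZ5676 or MI-2-2, most of the factors stood well above DMSO, whereas with MM-401 or iBET most did not. Against DMSO, 7 of the 10 members were called higher with EPZ5676, where 18.7% of all genes tested were called higher, and 9 of 10 with MI-2-2, against 20.2% of all genes. With iBET 1 member was called higher, against 6.38% of all genes, and with MM-401 none was, against 0% of all genes. No member was called lower in any of these 4 comparisons, where 19.4% of all genes were called lower with EPZ5676, 21.2% with MI-2-2, 7.54% with iBET and 0% with MM-401. The comparisons share the DMSO libraries and so are not independent of each other. The count of 0 for MM-401 came from edgeR. Neither an unadjusted p below 0.05 nor DESeq2 picked a member, with counts of 0 and 0, while 1450 of all genes passed the unadjusted p and 297 were called by DESeq2. Without any test, both EPZ5676 libraries lay above both DMSO libraries for 9 members, as they did for 31.6% of all genes. The same held for 9 members with MI-2-2, against 33.1% of all genes, for 5 with iBET, against 27.7%, and for 2 with MM-401, against 19.5%.

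**Figure D1:**
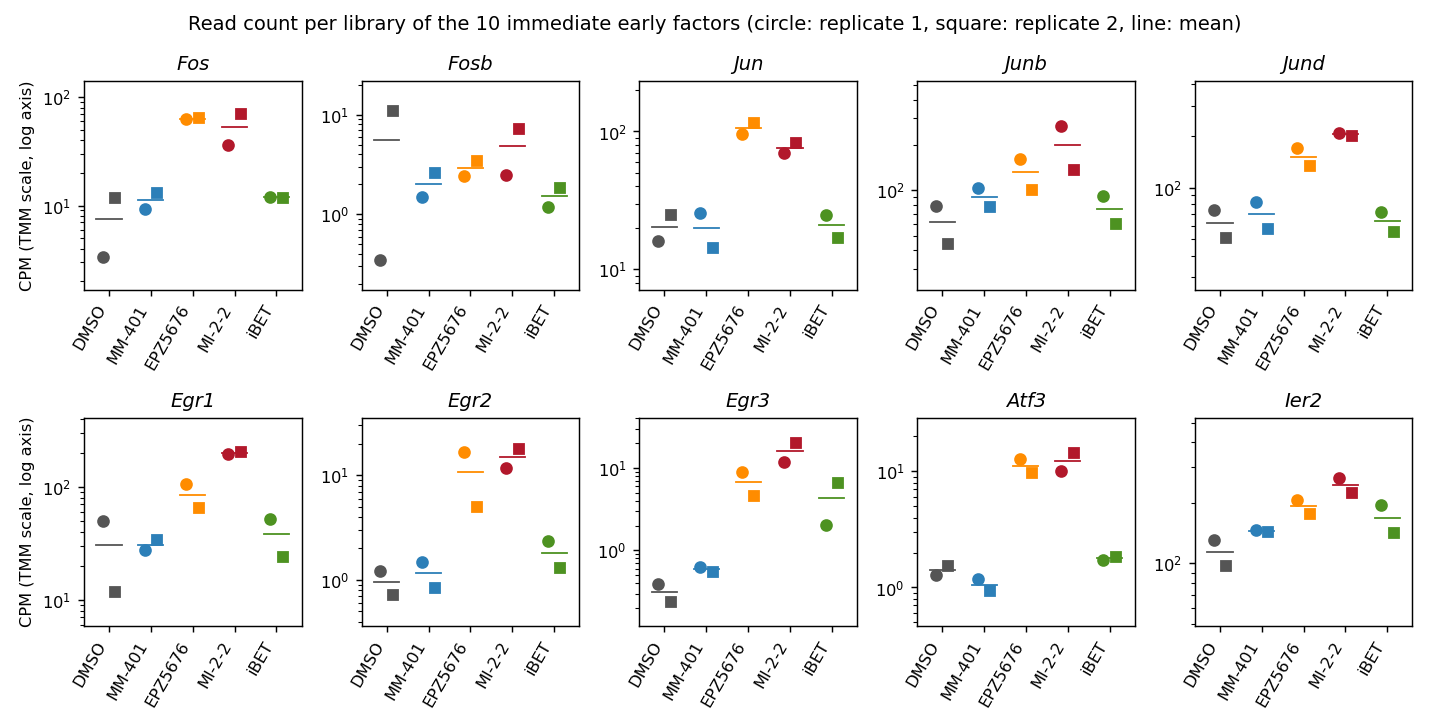
CPM (TMM scale, log axis) of each of the 10 factors in each library, with circles for replicate 1, squares for replicate 2 and lines for the mean of the 2 libraries, by treatment. In 9 panels both EPZ5676 and both MI-2-2 libraries lie above both DMSO libraries, and in the panel of Fosb the DMSO libraries lie at 0.350 and 10.9 CPM.

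**Figure D2:**
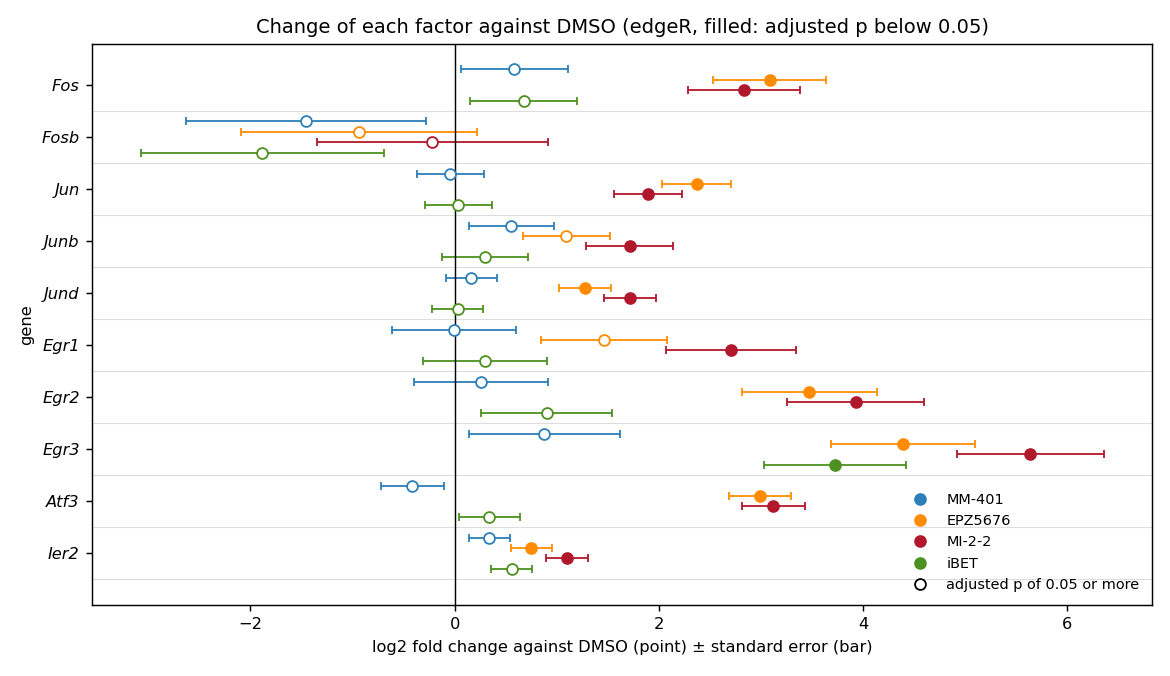
Log2 fold change against DMSO (x axis) for each factor and inhibitor, with points for the edgeR estimate, bars for its standard error and filled points for an adjusted p below 0.05. The 2 largest changes are those of Egr3, at 5.64 with MI-2-2 and 4.39 with EPZ5676, and the 1 filled point of iBET is Egr3 at 3.73.

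The comparisons between inhibitors use no DMSO library for their fold changes, although all groups share 1 estimate of the spread. Against MM-401, 6 members were called higher with EPZ5676 (16.7% of all genes), 8 with MI-2-2 (18.0% of all genes) and 1 with iBET (5.48% of all genes). Against iBET, 5 were called higher with EPZ5676 (19.1% of all genes) and 8 with MI-2-2 (19.7% of all genes). Between MI-2-2 and EPZ5676 edgeR called no member, against 0.00771% of all genes called higher. There DESeq2 called 0 members too, and 0 had an unadjusted p below 0.05. Of all genes, DESeq2 called 155, and 937 of 12971 had an unadjusted edgeR p below 0.05. Again no member was called lower. Of all genes, EPZ5676 had 16.6% called lower than in MM-401 and 18.5% lower than in iBET, MI-2-2 had 17.6% lower than in MM-401, 19.1% lower than in iBET and 0.00771% lower than in EPZ5676, and iBET had 5.96% lower than in MM-401. With the replicate number as a block, EPZ5676 had 8 members called, MI-2-2 had 9 and iBET had 1 compared with MM-401, while compared with iBET EPZ5676 had 6 and MI-2-2 had 9. More of the 12971 genes were called in that fit as well, 5635, 5965 and 2470 compared with MM-401 (4320, 4630 and 1484 without the block) and 6200 and 6283 compared with iBET (4879 and 5034). Leaving out 1 library gave 2 to 7, 4 to 9 and 0 to 1 in the first 3 of these comparisons, and 2 to 6 and 4 to 10 in the others.

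FOS, the partner that JUN proteins take up in classical AP-1, is the best known product of an immediate early gene. Fos stood at 3.35 and 11.6 CPM in DMSO, 9.30 and 13.1 CPM with MM-401, 62.4 and 64.0 CPM with EPZ5676, 36.0 and 70.1 CPM with MI-2-2, and 12.0 and 11.8 CPM with iBET. All 4 libraries of EPZ5676 and MI-2-2 were high and none overlapped with the other 6, while the range of MM-401 ran into those of DMSO and iBET, and the iBET libraries lay just above both DMSO libraries. The ranges of EPZ5676 and MI-2-2 ran into each other. Against DMSO, Fos rose 8.49-fold with EPZ5676 (log2 fold change 3.09, SE 0.55, edgeR, Benjamini-Hochberg adjusted p = 0.00452). With MI-2-2 it rose 7.12-fold (log2 fold change 2.83, SE 0.55, edgeR, Benjamini-Hochberg adjusted p = 0.00560). The log2 fold change of Fos with iBET was 0.68, with an edgeR Benjamini-Hochberg adjusted p of 0.409, and became 1.83 with an adjusted p of 0.0235 when DMSO replicate 2 was left out. Without that library Fos was 4.26 above DMSO on the log2 scale with EPZ5676 and 4.02 with MI-2-2, without DMSO replicate 1 it was 2.44 and 2.19 above, and both stayed called. With MM-401 its log2 fold change was 0.59, -0.06 without DMSO replicate 1 and 1.72 without DMSO replicate 2, none of them called. Compared with MM-401, Fos was higher by a log2 fold change of 2.50 with EPZ5676 and 2.25 with MI-2-2. Both were called on all libraries, and both calls were lost without either MM-401 library (edgeR, Benjamini-Hochberg adjusted p of 0.0595 to 0.101), that of MI-2-2 also without MI-2-2 replicate 2 (log2 fold change 1.69, adjusted p = 0.0881).

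Fosb, whose product is a close relative of FOS and also pairs with JUN proteins, was called in none of the 10 comparisons on all libraries. It stood at 0.350 and 10.9 CPM in DMSO, from 9 and 228 reads, at 1.48 and 2.60 CPM with MM-401, 2.42 and 3.44 CPM with EPZ5676, 2.47 and 7.16 CPM with MI-2-2, and 1.19 and 1.84 CPM with iBET. The DMSO libraries held both the lowest and the highest value, so that all other 8 libraries lay between them. Its log2 fold change against DMSO was -0.94 with EPZ5676 (SE 1.15), -0.22 with MI-2-2 (SE 1.13), -1.88 with iBET and -1.46 with MM-401. The sign of these values was decided by the control library used. Without DMSO replicate 2 the log2 fold change of Fosb was 3.07 with EPZ5676 (edgeR, Benjamini-Hochberg adjusted p = 0.0268) and 3.80 with MI-2-2 (adjusted p = 0.0120), and it was 2.10 with iBET and 2.51 with MM-401, neither called. Without DMSO replicate 1 it was -1.89 with EPZ5676 (edgeR, Benjamini-Hochberg adjusted p = 0.0318), -2.83 with iBET (adjusted p = 0.0135) and -2.41 with MM-401 (adjusted p = 0.0461). Compared with iBET, Fosb was called higher with MI-2-2 in the fit without DMSO (log2 fold change 1.68, edgeR, Benjamini-Hochberg adjusted p = 0.0323) and without either DMSO library.

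JUN proteins can form AP-1 with FOS or among themselves, and JUN is the strongest activator of the family. Jun stood at 16.0 and 25.0 CPM in DMSO, 25.5 and 14.2 CPM with MM-401, 95.5 and 116 CPM with EPZ5676, 69.4 and 82.6 CPM with MI-2-2, and 24.9 and 17.0 CPM with iBET. The EPZ5676 libraries were the highest, the MI-2-2 libraries came next without overlap, and the other 6 libraries shared a single range. Against DMSO, Jun rose 5.18-fold with EPZ5676 (log2 fold change 2.37, SE 0.34, edgeR, Benjamini-Hochberg adjusted p = 0.00191) and 3.72-fold with MI-2-2 (log2 fold change 1.89, SE 0.33, adjusted p = 0.00387). Its log2 fold change was -0.04 with MM-401 (SE 0.33) and 0.03 with iBET (SE 0.33), neither called. These became -0.33 and -0.25 without DMSO replicate 1 and 0.30 and 0.39 without DMSO replicate 2, again without a call. Between MI-2-2 and EPZ5676 the log2 fold change of Jun was -0.48, which was not called (edgeR, Benjamini-Hochberg adjusted p = 0.899).

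Junb and Jund encode the other JUN proteins, of which JUNB is known for holding back JUN at many promoters and JUND for being present in resting cells. Junb stood at 79.1 and 43.7 CPM in DMSO, 103 and 77.4 CPM with MM-401, 162 and 101 CPM with EPZ5676, 266 and 137 CPM with MI-2-2, and 91.6 and 59.6 CPM with iBET. Its 5 ranges formed a chain in which each group overlapped with the next, from MI-2-2 through EPZ5676, MM-401 and iBET to DMSO, and the libraries of each replicate number stood in that order. With the replicate number as a block Junb was called for EPZ5676 and MI-2-2 against MM-401 (edgeR, Benjamini-Hochberg adjusted p = 0.0213 and 0.00129). It was also called for EPZ5676 against iBET (edgeR, Benjamini-Hochberg adjusted p = 0.00343). None of these was called in the edgeR fit to all 10 libraries without the block. For MI-2-2 against MM-401, Junb was called without a block by DESeq2 (log2 fold change 1.19, Benjamini-Hochberg adjusted p = 0.0141). So it was by edgeR in the fit without DMSO (Benjamini-Hochberg adjusted p = 0.0375) and without either DMSO library. Against DMSO, Junb rose 3.28-fold with MI-2-2 (log2 fold change 1.71, SE 0.43, edgeR, Benjamini-Hochberg adjusted p = 0.0149). The call was lost without DMSO replicate 2 (log2 fold change 1.38, edgeR, Benjamini-Hochberg adjusted p = 0.0582) and without MI-2-2 replicate 1 (log2 fold change 1.16, adjusted p = 0.0909). With EPZ5676 the log2 fold change of Junb was 1.10 (SE 0.42), with an edgeR Benjamini-Hochberg adjusted p of 0.0732. That gene was called in only 3 of the 14 alternatives. These were DESeq2 (log2 fold change 1.14, Benjamini-Hochberg adjusted p = 0.0183), edgeR with the replicate number as a block (adjusted p = 0.00105) and edgeR without DMSO replicate 1 (log2 fold change 1.59). The log2 fold change was 0.76 without DMSO replicate 2 and 0.72 without EPZ5676 replicate 1. With iBET the log2 fold change of Junb was 0.30, 0.80 without DMSO replicate 1 and -0.07 without DMSO replicate 2, none of them called.

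Jund stood at 74.4 and 50.8 CPM in DMSO, 82.9 and 57.4 CPM with MM-401, 170 and 134 CPM with EPZ5676, 209 and 201 CPM with MI-2-2, and 72.5 and 55.4 CPM with iBET. The MI-2-2 libraries were highest and close to each other, the EPZ5676 libraries came next, and the remaining 3 groups overlapped. Against DMSO, Jund rose 3.28-fold with MI-2-2 (log2 fold change 1.71, SE 0.25, edgeR, Benjamini-Hochberg adjusted p = 0.00202) and 2.43-fold with EPZ5676 (log2 fold change 1.28, SE 0.25, adjusted p = 0.00649). It was called against MM-401 and against iBET as well with both inhibitors, with log2 fold changes from 1.11 to 1.68. For EPZ5676 the call against MM-401 was lost without MM-401 replicate 2 (edgeR, Benjamini-Hochberg adjusted p = 0.0952) and without EPZ5676 replicate 1 (adjusted p = 0.0708), and that against iBET without iBET replicate 2 (adjusted p = 0.0651). Against DMSO the log2 fold change of Jund was 0.16 with MM-401 and 0.03 with iBET. It was 0.47 and 0.34 without DMSO replicate 1 and -0.10 and -0.22 without DMSO replicate 2, and none of these was called.

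Per kilobase of exon in the GENCODE M21 annotation, Jund and Junb made up most of the JUN family in every library. In DMSO, the level of Jun was 5.96% and 13.7% of the summed CPM per kilobase of Jun, Junb and Jund, and with EPZ5676 it was 14.8% and 22.7%. With MI-2-2 that share was 8.27% and 12.6%, within the DMSO range, although the summed level was 263 and 206 CPM per kilobase compared with 84.0 and 57.2 in DMSO. In the Fos family, Fos held 20.2% and 46.7% of the summed CPM per kilobase in DMSO, 42.3% and 65.2% with MM-401, 62.4% and 75.9% with EPZ5676, 45.4% and 63.8% with MI-2-2, and 50.6% and 50.3% with iBET. The shares with EPZ5676 and with iBET lay above both DMSO libraries, while those with MM-401 and MI-2-2 overlapped with DMSO. Fosl2, which belongs to the family but not to the 10 members, held most of the remainder with EPZ5676, at 33.8% and 21.6%. Fosb never exceeded 4.90% of the Fos family outside DMSO replicate 2, where it held 16.5%.

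**Figure D3:**
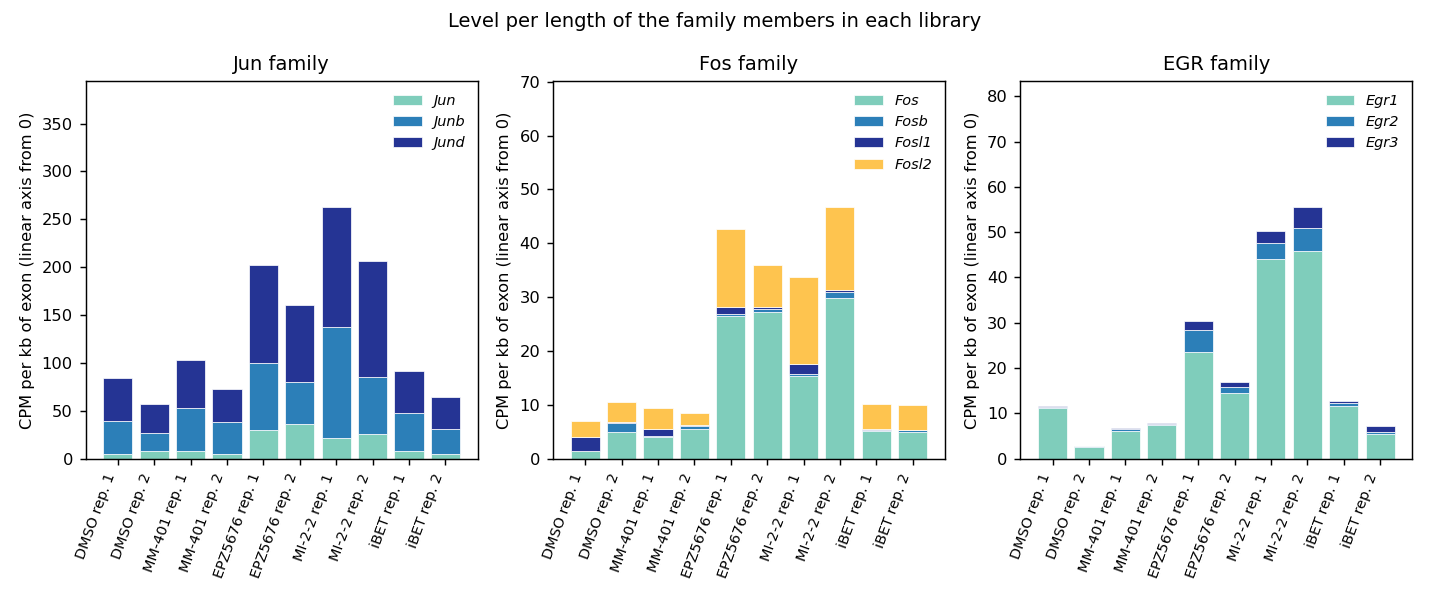
Summed CPM per kilobase of exon (linear axis from 0) of the Jun, Fos and EGR families in each library, with 1 color for each gene in the bar. The JUN family bar reaches 263 CPM per kilobase in MI-2-2 replicate 1, and most of each EGR family bar is Egr1.

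Atf3 encodes a stress-induced partner of JUN proteins that often acts as a repressor. It stood at 1.28 and 1.53 CPM in DMSO, 1.18 and 0.924 CPM with MM-401, 12.7 and 9.74 CPM with EPZ5676, 10.1 and 14.5 CPM with MI-2-2, and 1.72 and 1.84 CPM with iBET. The 4 libraries of EPZ5676 and MI-2-2 overlapped with each other and lay far from the other 6, whose values ranked iBET, DMSO and MM-401 without overlap but within 0.924 to 1.84 CPM. Against DMSO, Atf3 rose 7.94-fold with EPZ5676 (log2 fold change 2.99, SE 0.31, edgeR, Benjamini-Hochberg adjusted p = 0.000696) and 8.71-fold with MI-2-2 (log2 fold change 3.12, SE 0.31, adjusted p = 0.000610). Both calls held in all 14 alternatives, with a log2 fold change no lower than 2.79 for EPZ5676. With iBET its log2 fold change was 0.34 and with MM-401 -0.42, and neither was called.

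EGR1 is the founding zinc-finger factor of its family and is known for driving monocyte and macrophage genes. Egr1 stood at 49.8 and 11.6 CPM in DMSO, 27.7 and 33.6 CPM with MM-401, 105 and 64.6 CPM with EPZ5676, 198 and 205 CPM with MI-2-2, and 51.8 and 24.1 CPM with iBET. The MI-2-2 libraries were highest and nearly equal, the EPZ5676 libraries came next, and the other 6 overlapped, with DMSO replicate 2 the lowest of all 10. Egr1 rose 6.53-fold with MI-2-2 (log2 fold change 2.71, SE 0.64, edgeR, Benjamini-Hochberg adjusted p = 0.0119), with a log2 fold change of 4.12 without DMSO replicate 1 and 2.05 without DMSO replicate 2, both called. With EPZ5676 its log2 fold change was 1.46 (SE 0.62), with an edgeR Benjamini-Hochberg adjusted p of 0.0945. Without DMSO replicate 1 the log2 fold change of Egr1 was 2.87 with EPZ5676 (edgeR, Benjamini-Hochberg adjusted p = 0.00280) and 1.71 with iBET (adjusted p = 0.0358). Without DMSO replicate 2 these values were 0.80 and -0.39, compared with 0.30 for iBET on all libraries, and none of these 3 was called. With MM-401 the log2 fold change was -0.01, 1.40 without DMSO replicate 1 and -0.72 without DMSO replicate 2, none of them called. On all libraries Egr1 was called with EPZ5676 by DESeq2 (log2 fold change 1.51, Benjamini-Hochberg adjusted p = 0.0218) and by edgeR with the replicate number as a block (adjusted p = 0.0353).

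EGR2 and EGR3 share the zinc fingers of EGR1, and EGR2 is known in macrophage and lymphocyte differentiation. Egr2 stood at 1.21 and 0.719 CPM in DMSO, 1.48 and 0.840 CPM with MM-401, 16.6 and 4.99 CPM with EPZ5676, 11.9 and 17.8 CPM with MI-2-2, and 2.34 and 1.30 CPM with iBET. Its EPZ5676 libraries differed 3.33-fold and spanned those of MI-2-2 in part, while all 4 lay above the other 6, which overlapped in order from iBET to MM-401 to DMSO. Against DMSO, Egr2 rose 11.1-fold with EPZ5676 (log2 fold change 3.47, SE 0.66, edgeR, Benjamini-Hochberg adjusted p = 0.00568) and 15.2-fold with MI-2-2 (log2 fold change 3.93, SE 0.67, adjusted p = 0.00336). The value for EPZ5676 was 2.36 without EPZ5676 replicate 1 and 4.10 without EPZ5676 replicate 2, both called. With MM-401 its log2 fold change was 0.26, 0.69 without DMSO replicate 1 and -0.07 without DMSO replicate 2, none of them called.

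Egr3 had the largest change of the 10 and was the member called with iBET. It stood at 0.389 and 0.240 CPM in DMSO, 0.634 and 0.546 CPM with MM-401, 9.02 and 4.56 CPM with EPZ5676, 11.9 and 20.3 CPM with MI-2-2, and 2.03 and 6.50 CPM with iBET. The control values rest on 10 and 5 reads, close to the 3 reads (0.117 and 0.144 CPM in these libraries) that a count of 0 would allow, a floor that covers counting error only. The levels ran from MI-2-2 through EPZ5676 and iBET, which overlapped, down to MM-401 and DMSO, which did not overlap. Against DMSO, Egr3 rose by a log2 fold change of 5.64 with MI-2-2 (SE 0.72, edgeR, Benjamini-Hochberg adjusted p = 0.00121) and 4.39 with EPZ5676 (SE 0.70, adjusted p = 0.00282). With iBET it rose by 3.73 (SE 0.69, edgeR, Benjamini-Hochberg adjusted p = 0.0147), and 0.0925% of the genes tested had a larger log2 fold change in that comparison.

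Compared with MM-401, iBET had Egr3 higher by a log2 fold change of 2.85 (SE 0.65, edgeR, Benjamini-Hochberg adjusted p = 0.0304). That call was lost without MM-401 replicate 1 (adjusted p = 0.169 by edgeR and Benjamini-Hochberg), MM-401 replicate 2 (adjusted p = 0.191) or iBET replicate 2 (log2 fold change 1.78, adjusted p = 0.167). The iBET libraries differed 3.20-fold in Egr3, and without iBET replicate 2 the log2 fold change against DMSO was 2.66, with an edgeR Benjamini-Hochberg adjusted p of 0.0760. MI-2-2 had Egr3 higher than iBET by 1.91 on the log2 scale (edgeR, Benjamini-Hochberg adjusted p = 0.0324), a call that was lost when any 1 of both MM-401 libraries, both MI-2-2 libraries and iBET replicate 1 was left out (adjusted p of 0.0559 to 0.160). EPZ5676 exceeded iBET by 0.67, which was not called (SE 0.57, edgeR, Benjamini-Hochberg adjusted p = 0.382). In iBET replicate 2, Egr3 made up 20.4% of the summed CPM per kilobase of Egr1, Egr2 and Egr3, compared with 0.765% and 1.90% in DMSO. Egr1 held the largest share of the EGR family in every library, with 74.3% as the lowest, in that same iBET library.

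Ier2, a nuclear protein named for its immediate early response, was the most abundant member per kilobase in all 5 groups and changed least among those called. It stood at 130 and 97.1 CPM in DMSO, 146 and 142 CPM with MM-401, 207 and 176 CPM with EPZ5676, 264 and 224 CPM with MI-2-2, and 195 and 141 CPM with iBET. The MI-2-2 libraries were highest and stood clear of the EPZ5676 libraries, those of EPZ5676, iBET and MM-401 overlapped in turn, and DMSO was lowest without overlap. Ier2 rose 2.15-fold with MI-2-2 (log2 fold change 1.10, SE 0.20, edgeR, Benjamini-Hochberg adjusted p = 0.00455) and 1.68-fold with EPZ5676 (log2 fold change 0.75, SE 0.20, adjusted p = 0.0213). The EPZ5676 call was lost with total-count scaling (log2 fold change 0.58, edgeR, Benjamini-Hochberg adjusted p = 0.0695), without DMSO replicate 2 (log2 fold change 0.58, adjusted p = 0.0743) and without either EPZ5676 library. With iBET its log2 fold change was 0.56 (SE 0.20), with an edgeR Benjamini-Hochberg adjusted p of 0.0981, and 0.80 without DMSO replicate 1 (adjusted p = 0.0295). It was called with the replicate number as a block (edgeR, Benjamini-Hochberg adjusted p = 0.0195).

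Across the set, the median log2 fold change of the 10 members against DMSO was 1.92 with EPZ5676, where the median over all genes was -0.06. It was 2.30 with MI-2-2 (all genes -0.05), 0.32 with iBET (all genes -0.04) and 0.21 with MM-401 (all genes -0.01). Their summed level was 356 and 253 CPM in DMSO, 399 and 343 CPM with MM-401, 843 and 678 CPM with EPZ5676, 1079 and 980 CPM with MI-2-2, and 455 and 321 CPM with iBET. Between MI-2-2 and EPZ5676 the median of the members was 0.45 (all genes 0.01). The largest differences in that comparison were those of Egr3 (log2 fold change 1.25, SE 0.56) and Egr1 (log2 fold change 1.24, SE 0.61), with edgeR Benjamini-Hochberg adjusted p of 0.723 and 0.752. A p that misses the threshold with 2 libraries a group does not show that these inhibitors act alike.

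Total-count scaling moved the balance of calls with EPZ5676 and MI-2-2, and little with iBET. With EPZ5676 against DMSO, 49.2% of the called genes were higher on the TMM scale and 34.7% with total-count scaling, and with MI-2-2 these shares were 48.9% and 37.1%. With MM-401 as the reference, the split was 50.3% on the TMM scale and 35.5% by total counts when EPZ5676 was compared, and 50.6% and 37.7% when MI-2-2 was. With iBET as the reference it was 50.9% and 38.5% in the EPZ5676 comparison and 50.7% and 39.2% in that of MI-2-2. For iBET itself the split was 45.8% and 43.9% against DMSO and 47.9% and 46.2% against MM-401. By DESeq2, 51.5% of the calls for EPZ5676 and 51.0% of those for MI-2-2 against DMSO were higher. Total-count scaling shifted the median log2 fold change of all genes against DMSO by -0.17 with EPZ5676 and -0.15 with MI-2-2, and with it 6 and 9 members were still called higher, where 1931 and 2156 of the 12971 genes were.

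By level per kilobase, the order of the members in DMSO was Ier2 at 74.8 CPM per kilobase, Jund at 37.5, Junb at 26.7, Egr1 at 6.86, Jun at 6.42, Fos at 3.19, Fosb at 0.903, Atf3 at 0.654, Egr2 at 0.283 and Egr3 at 0.0714, as means of 2 libraries. The first 3 kept their places in every group, although Jund and Junb overlapped in DMSO, as did Egr1 and Jun, while Jun and Fos did not. With EPZ5676, Jun at 33.2 and Fos at 26.9 CPM per kilobase stood above Egr1 at 19.0, and with MI-2-2 Egr1 at 44.9 stood above Jun at 23.8 and Fos at 22.6. Egr3 left the last place with all inhibitors but MM-401, and Fosb took it.

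In the annotation, Jun, Junb, Jund and Ier2 are single-exon genes, while Fos and Atf3 have 4 exons. Junb, Jund and Ier2 lie on chromosome 8, and the other 7 members lie on 7 different chromosomes. Junb overlaps Prdx2 on the other strand over 173 exonic bases, Jun overlaps the antisense gene Junos over 232 bases, and Jund overlaps the antisense gene Gm11175 over 543 bases. Whether strand was used in counting is not given in the sources used here, so reads from these shared bases cannot be told apart.

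Since most members moved together, the bases just before their starts were read. RefSeq windows of 250 bases upstream of the transcript start (GRCm38.p6) were found for 7 of the 10 members, 11 windows in all, for Fos, Fosb, Jun, Junb, Jund, Egr2 and Atf3. The motifs searched on both strands were the CRE (cyclic AMP response element) TGACGTCA, its shorter form TGACG, a CRE-like site TGACNTCA, the AP-1 site TGANTCA, the EGR site GCGNGGGCG, the CArG box bound by serum response factor, the TATA box TATAAA and the CCAAT box. A full CRE contains the short form and is also a CRE-like site. A window of Fos (chr12:85473640-85473889, plus strand), Jun (chr4:95052223-95052472, minus strand), Junb (chr8:84978749-84978998, minus strand), Egr2 (chr10:67537619-67537868, plus strand) and Atf3 (chr1:191183334-191183583, minus strand) is printed 5′ to 3′, ending at the base before the start. They are shown because these 5 genes rose with MI-2-2 and each holds a match, and capitals mark matches other than CCAAT.
Fos: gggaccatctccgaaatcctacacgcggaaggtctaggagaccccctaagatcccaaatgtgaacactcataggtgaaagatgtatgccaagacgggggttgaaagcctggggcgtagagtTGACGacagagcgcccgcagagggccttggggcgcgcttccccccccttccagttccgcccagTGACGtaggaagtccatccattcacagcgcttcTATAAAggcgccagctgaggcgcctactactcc
Jun: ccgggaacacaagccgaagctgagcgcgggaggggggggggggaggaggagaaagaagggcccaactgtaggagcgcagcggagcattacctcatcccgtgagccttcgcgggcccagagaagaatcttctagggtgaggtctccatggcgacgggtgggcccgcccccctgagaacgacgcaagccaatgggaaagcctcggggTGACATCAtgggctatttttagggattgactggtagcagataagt
Junb: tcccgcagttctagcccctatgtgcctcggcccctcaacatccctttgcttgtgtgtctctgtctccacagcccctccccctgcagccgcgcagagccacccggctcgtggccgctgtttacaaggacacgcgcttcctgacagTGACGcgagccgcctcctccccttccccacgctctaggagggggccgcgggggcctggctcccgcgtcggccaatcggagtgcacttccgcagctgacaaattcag
Egr2: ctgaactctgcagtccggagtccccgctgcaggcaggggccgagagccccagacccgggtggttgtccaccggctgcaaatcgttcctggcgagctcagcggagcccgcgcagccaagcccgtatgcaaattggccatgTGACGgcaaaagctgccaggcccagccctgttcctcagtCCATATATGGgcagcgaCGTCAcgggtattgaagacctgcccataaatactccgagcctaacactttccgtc
Atf3: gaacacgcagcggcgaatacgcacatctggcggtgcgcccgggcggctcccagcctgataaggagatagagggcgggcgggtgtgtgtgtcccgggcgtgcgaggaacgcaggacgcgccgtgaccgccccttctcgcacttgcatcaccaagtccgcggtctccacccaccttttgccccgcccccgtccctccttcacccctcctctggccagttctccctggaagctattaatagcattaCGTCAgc

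The short CRE form TGACG was in a window of 5 of the 7 members, compared with 19.8% of all 27025 genes that had a window. Genes differ in their number of windows, and Egr2 had 5. Shares of genes given below count a match in any window of a gene. It lay 7 to 3 bases before the start in Atf3, 106 to 102 in Junb, 60 to 56 in Fosb, at 129 to 125 and 66 to 62 in Fos, and at 111 to 107 and 55 to 51 in the Egr2 window shown. Jun held the CRE-like site TGACATCA 45 to 38 bases before its start, a form found in 8.55% of genes. Of the 7 members, Egr2 held a CArG box (1.62% of genes) 72 to 63 bases before the start, Fosb the EGR site (5.33% of genes) 50 to 42 before it, and Fos a TATA box (14.3% of genes) 33 to 28 before it. CCAAT was in windows of 3 members, Jun, Junb and Egr2 (37.5% of genes). No window of a member held the full CRE (1.77% of genes) or the AP-1 site (7.82% of genes). For these and for every other motif, such as the CArG box, a lack of a match says only that the letters are not in these 250 bases. Egr1, Egr3 and Ier2 had no window and were not searched. A match describes the sequence and is no evidence of binding.

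Other AP-1 genes were counted from a list of 8, of which 7 were tested. Against DMSO, 2 were called higher and none lower with each of EPZ5676 and MI-2-2, where 18.7% and 20.2% of all genes were called higher, and with iBET and MM-401 none was called. Leaving out DMSO replicate 1 gave 3 higher with each of EPZ5676 and MI-2-2 and 1 with iBET. The genes called on all libraries were Fosl2, a FOS relative, and Jdp2, a repressor that pairs with JUN proteins. Fosl2 stood at 28.7 and 36.6 CPM in DMSO, 139 and 75.1 CPM with EPZ5676 and 156 and 149 CPM with MI-2-2, with log2 fold changes of 1.71 and 2.22. Jdp2 stood at 60.3 and 50.9 CPM in DMSO, 130 and 167 CPM with EPZ5676 and 119 and 118 CPM with MI-2-2, with log2 fold changes of 1.42 and 1.09. The median of the 7 was 0.32 with EPZ5676 and 0.14 with MI-2-2 (all genes -0.06 and -0.05). Of the EGR relatives and the NAB corepressors, which bind EGR proteins and damp them, Egr4 had no read in any library and Nab1 and Nab2 were tested without a call against DMSO. Of these 2, 1 was called higher with each of EPZ5676, MI-2-2 and iBET without DMSO replicate 1, and 1 with MI-2-2 without DMSO replicate 2. Nab2 stood at 4.67 and 0.815 CPM in DMSO, 10.8 and 6.59 CPM with EPZ5676, 10.1 and 9.42 CPM with MI-2-2 and 6.98 and 7.42 CPM with iBET, and all 6 of these inhibitor libraries lay above both DMSO libraries.

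Immediate early genes outside the 10 members were called higher far more often than lower with EPZ5676 and MI-2-2. Of 36 listed, 33 were tested. With EPZ5676 16 were called higher and 1 lower, with a median log2 fold change of 1.37 (all genes -0.06), and with MI-2-2 16 higher and 2 lower, with a median of 1.69 (all genes -0.05). Of all genes, 18.7% were called higher and 19.4% lower with EPZ5676, and 20.2% and 21.2% with MI-2-2. With iBET 2 were called higher and 1 lower (6.38% and 7.54% of all genes), with a median of -0.20 (all genes -0.04). With MM-401 none was called by edgeR (0% of all genes), with a median of -0.28 (all genes -0.01). Without DMSO replicate 1, an alternative chosen after seeing the data, the counts were 22 higher and 2 lower with EPZ5676, 21 and 2 with MI-2-2, 5 and 4 with iBET, and 3 and 2 with MM-401. Without DMSO replicate 2 they were 15 and 1, 17 and 2, 2 and 4, and 0 and 0 in the same order. Against MM-401 no DMSO library enters the fold changes, although all groups share 1 estimate of the spread. There 21 were called higher and 0 lower with EPZ5676 (16.7% and 16.6% of all genes). With MI-2-2 20 were called higher and 1 lower (18.0% and 17.6% of all genes).

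The largest changes of that list were the same 4 genes with both inhibitors. Trib1, a pseudokinase that steers the breakdown of C/EBP proteins, averaged 1.77 CPM in DMSO, 24.9 CPM with EPZ5676 and 58.2 CPM with MI-2-2 (log2 fold changes 3.82 and 5.05). Plk2, a kinase induced by serum, averaged 1.20, 10.7 and 18.0 CPM in the same groups (log2 fold changes 3.13 and 3.89). Phlda1, first described as induced by T-cell activation, averaged 3.76, 31.2 and 46.8 CPM (log2 fold changes 3.05 and 3.63). Sgk1, a kinase induced by serum and glucocorticoids, averaged 10.1, 79.0 and 95.0 CPM (log2 fold changes 2.97 and 3.24). With iBET the called genes were Zfp36, which destabilizes short-lived mRNAs, at a log2 fold change of 1.14, Nfkbia, the inhibitor of NF-κB, at 0.82, and Csrnp1 at -1.10.

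Genes of the MAPK pathway and of the factors that switch immediate early genes on were called in both directions. Of 22 tested, 7 were called higher and 3 lower with EPZ5676, 8 and 2 with MI-2-2, 1 and 1 with iBET (Mkl2 and Braf) and none with MM-401 by edgeR, and the medians lay between 0.02 and 0.18 (all genes -0.06 to -0.01). The 10 of 22 called with each of EPZ5676 and MI-2-2 compare with 38.1% and 41.4% of all genes. The counts became, without DMSO replicate 1, 7 higher and 5 lower with EPZ5676, 9 and 3 with MI-2-2, 5 and 2 with iBET, and 1 and 0 with MM-401, and without DMSO replicate 2 they were 5 and 2, 8 and 2, 4 and 1, and 0 and 0. The largest change was in Mkl1, a coactivator of serum response factor, which averaged 74.7 CPM in DMSO, 194 CPM with EPZ5676 and 196 CPM with MI-2-2 (log2 fold changes 1.38 and 1.39). Mapk3, which encodes the kinase ERK1, rose by 0.96 and 0.95 on the log2 scale with these inhibitors, Braf by 0.72 and 1.03, and Mapk8, which encodes the kinase JNK1, fell by 0.97 with EPZ5676.

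Genes whose products switch MAPK signalling off went both ways. Of 12 tested, 2 were called higher and 2 lower with EPZ5676, 4 higher and 2 lower with MI-2-2, and 2 higher and none lower with iBET, with medians of -0.11, 0.12 and 0.30 (all genes -0.06, -0.05 and -0.04). Of all genes, 38.1%, 41.4% and 13.9% were called in these comparisons, and the list had 4, 6 and 2 of 12. With MM-401 none was called. When DMSO replicate 1 was left out, the counts were 6 and 2 with EPZ5676, 6 and 2 with MI-2-2, 4 and 1 with iBET, and 2 and 0 with MM-401, and without DMSO replicate 2 they were 2 and 2, 3 and 2, 1 and 1, and 0 and 0. Dusp1, itself an immediate early phosphatase, averaged 12.2 CPM in DMSO, 36.7 CPM with EPZ5676 and 40.2 CPM with MI-2-2. Dusp5, which acts on ERK in the nucleus, averaged 3.55, 12.6 and 17.2 CPM. Their DMSO libraries stood apart, at 7.12 and 17.2 CPM for Dusp1 and 5.33 and 1.77 CPM for Dusp5. Dusp2, another nuclear phosphatase, fell with EPZ5676 from 12.2 to 3.52 CPM. Dusp6, a cytoplasmic ERK phosphatase, averaged 67.1 CPM in DMSO, 205 CPM with MI-2-2 and 207 CPM with iBET, and was called with both. Its libraries stood at 97.9 and 36.3 CPM in DMSO and at 262 and 153 CPM with iBET.

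Most textbook targets of AP-1 were called higher with EPZ5676 and MI-2-2. Of 9 tested, 7 were called higher and none lower with EPZ5676 and with MI-2-2, with medians of 3.48 and 2.95 (all genes -0.06 and -0.05), and none was called with iBET or MM-401 against DMSO by edgeR, with medians of -0.25 and 1.11 (all genes -0.04 and -0.01). Of all genes, 18.7% were called higher and 19.4% lower with EPZ5676, and 20.2% and 21.2% with MI-2-2. The share of all genes called in either direction was 13.9% with iBET and 0% with MM-401. A single target was called higher with MM-401 without DMSO replicate 1, and without DMSO replicate 2, 8 were called higher with each of EPZ5676 and MI-2-2 and 2 lower with iBET. Against MM-401, 5 of the 9 were called lower with iBET, where 5.96% of all genes were. They were Mmp13, Mmp12, Mmp9, Ccnd1 and Spp1, the last outside the rule for naming genes and named here after its value was seen. Mmp9, a matrix protease of neutrophils and macrophages, stood at 7.98 and 4.17 CPM in DMSO, 14.8 and 18.0 CPM with MM-401, 220 and 354 CPM with EPZ5676, 560 and 831 CPM with MI-2-2, and 3.09 and 1.22 CPM with iBET. Its log2 fold change against DMSO was 5.55 with EPZ5676 (SE 0.51) and 6.83 with MI-2-2 (SE 0.53). Plau, the urokinase gene, stood at 4.13 and 3.93 CPM in DMSO, 40.2 and 36.1 CPM with EPZ5676 and 30.4 and 34.9 CPM with MI-2-2. Ccnd1, which encodes cyclin D1, averaged 1.82 CPM in DMSO and 21.1 CPM with EPZ5676, and Mmp12, the macrophage elastase gene, 0.430 CPM in DMSO, 86.4 CPM with EPZ5676 and 118 CPM with MI-2-2. With MM-401, all of the 9 tested targets but Cd44 and Vegfa lay above both DMSO libraries, as did 19.5% of all genes. Among them were Ccnd1 at 7.78 and 7.01 CPM, Mmp12 at 2.92 and 11.6 CPM and Mmp9. Cd44 stood at 112 and 117 CPM with MM-401 and at 129 and 194 CPM in DMSO. Vegfa stood at 231 and 149 CPM with MM-401 and at 343 and 159 CPM in DMSO.

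Markers of mature myeloid cells rose with the members under EPZ5676 and MI-2-2, where 18.7% and 20.2% of all genes were called higher. With MM-401 the median log2 fold change was 3.29 for the macrophage markers and 1.25 for the neutrophil granule markers. That of the members was 0.21 and that of all genes -0.01. The value of the macrophage list rests in part on counts near the floor. In DMSO replicate 1, C1qa, C1qb, C1qc and Marco had 2, 6, 1 and 3 reads, and in DMSO replicate 2 they had 0. With iBET the medians of the 2 lists were 0.36 and -1.24, compared with 0.32 for the members (all genes -0.04). All 8 macrophage markers (Csf1r, Emr1, C1qa, C1qb, C1qc, Mrc1, Marco and Cd68) were called higher with EPZ5676 and with MI-2-2 (7 with each when DMSO replicate 1 was left out), and none with iBET or MM-401 (2 and 3 were higher without DMSO replicate 1). Their summed level was 79.3 and 63.7 CPM in DMSO, 113 and 102 CPM with MM-401, 332 and 435 CPM with EPZ5676, 339 and 698 CPM with MI-2-2, and 71.3 and 107 CPM with iBET. The most abundant was Cd68 in DMSO replicate 1 at 50.5 CPM and Mrc1 in MI-2-2 replicate 2 at 247 CPM, and 4 of the 8 had no read in DMSO replicate 2 and none was at 0 in DMSO replicate 1. All 7 neutrophil granule markers (Ltf, Camp, Ngp, S100a8, S100a9, Mmp8 and Lcn2) were called higher with EPZ5676 and with MI-2-2, while with iBET Camp and Ngp were called lower (6 were lower without DMSO replicate 2) and with MM-401 none was called (6 were higher without DMSO replicate 1). Their summed level was 3522 and 638 CPM in DMSO, 4462 and 5840 CPM with MM-401, 48766 and 66760 CPM with EPZ5676, 43547 and 44137 CPM with MI-2-2, and 1135 and 483 CPM with iBET. S100a9 was the most abundant with EPZ5676 and MI-2-2, at up to 24789 CPM, S100a8 in the other 6 libraries, and none of the 7 was at 0 in any library. Without DMSO replicate 1 more of all genes were called as well, so the counts of both lists in that fit cannot be set against the shares given here. The part of both lists in the result on the 10 members was not tested. In these bulk libraries, more cells of a type and more RNA per cell cannot be told apart.

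The progenitor and leukemia markers moved the other way in part. Of 9 tested, 5 were called lower and 2 higher with EPZ5676 and with MI-2-2, and Mpo and Elane were called lower with iBET. Of all genes, 19.4% were called lower and 18.7% higher with EPZ5676, and 21.2% and 20.2% with MI-2-2. With iBET 7.54% of all genes were called lower. In the fit without DMSO replicate 1 the counts were 6 lower and 2 higher with each of EPZ5676 and MI-2-2, 3 lower and 1 higher with iBET, and 1 lower with MM-401, and without DMSO replicate 2 they were 4 lower and 3 higher with EPZ5676 and with MI-2-2 and 2 lower with iBET. Their summed level was 7678 and 12728 CPM in DMSO, 8049 and 8326 CPM with MM-401, 3977 and 4271 CPM with EPZ5676, 3365 and 2987 CPM with MI-2-2, and 3837 and 3172 CPM with iBET, and none of the 9 was at 0 in any library. Meis1, a homeobox cofactor of HOXA9, averaged 63.2 CPM in DMSO, 1.23 CPM with EPZ5676 and 0.891 CPM with MI-2-2. The part of these markers in the result on the 10 members was not tested.

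Heat shock genes, known to respond to stress, were called lower or not at all with EPZ5676 and MI-2-2. Of 9 listed, 7 were tested. Hspa1a and Hspb1 had 0 to 5 reads in every library and were not tested, and Hspa1b had 9 to 39 reads. These genes are named for their low counts, outside the rule for naming genes. Of the 7 tested, none was called higher and 4 lower with EPZ5676, and none higher and 3 lower with MI-2-2. Of all genes, 18.7% were called higher and 19.4% lower with EPZ5676, and 20.2% and 21.2% with MI-2-2. The median log2 fold changes of the list were -0.85 and -1.17 (all genes -0.06 and -0.05). With iBET Dnajb1 was called higher and with MM-401 none was called. With DMSO replicate 1 left out the counts were 5 lower with each of EPZ5676 and MI-2-2, 1 higher and 5 lower with iBET and 2 lower with MM-401, and without DMSO replicate 2 they were 3 lower with EPZ5676 and with MI-2-2 and 3 higher with iBET. Their summed level was 712 and 1690 CPM in DMSO, 1198 and 1153 CPM with MM-401, 528 and 590 CPM with EPZ5676, 490 and 516 CPM with MI-2-2, and 930 and 962 CPM with iBET. The part of these genes in the result on the 10 members was not tested.

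**Figure D4:**
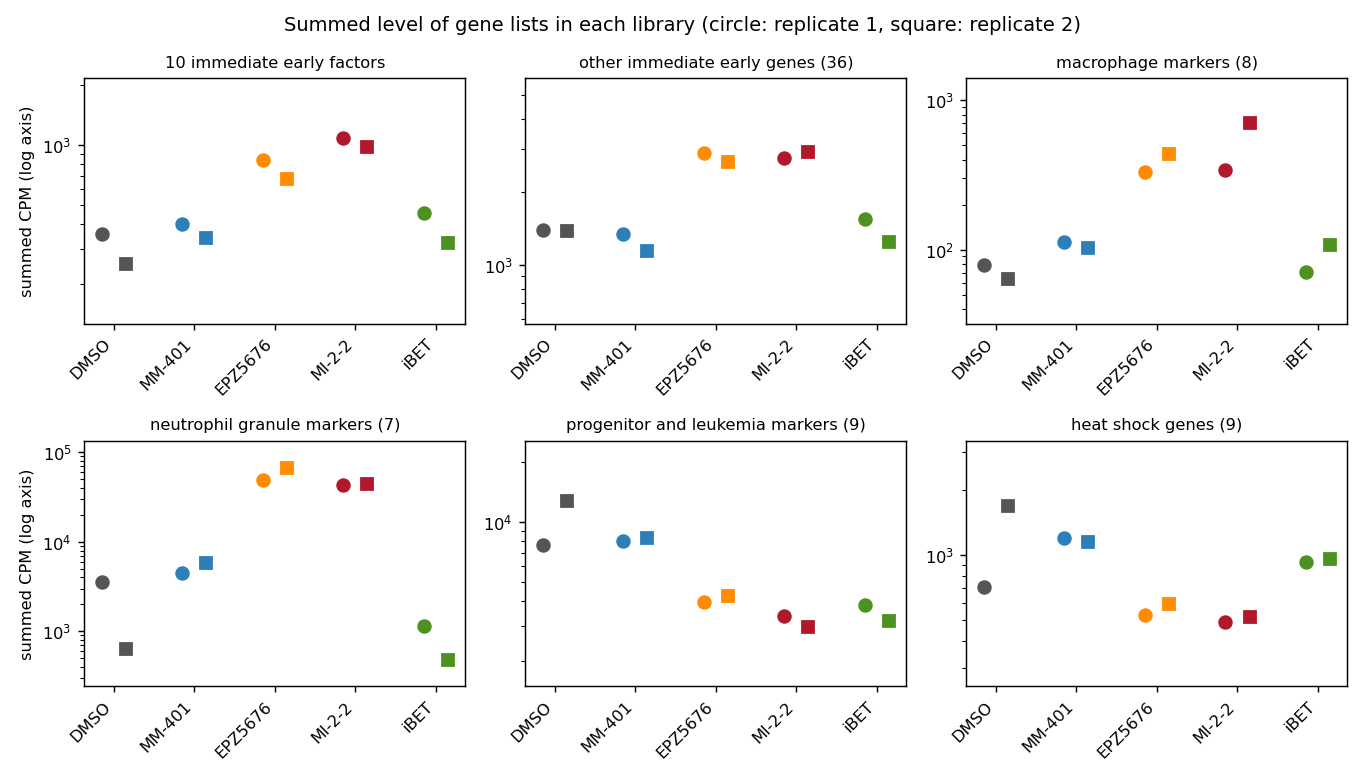
Summed CPM (log axis) of the 10 factors and of 5 gene lists in each library, with circles for replicate 1 and squares for replicate 2, by treatment. The sums of the factors and of both mature myeloid marker lists are highest with EPZ5676 and MI-2-2, and those of the heat shock genes are lowest there.

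The genes whose levels ran most like those of a member were taken from 9941 genes by Pearson's r over the 10 libraries, which share treatments and depth, as a description without a test. Fos was most like Flna, which encodes the actin crosslinker filamin A (r = 0.989), Jun like Hip1r (r = 0.977) and then Rhob (r = 0.972), and Atf3 like Tmcc1 (r = 0.991) and then Cyp4f18 (r = 0.991). Egr1 was most like Baz2a (r = 0.985), Egr2 like Ier5, itself an immediate early gene (r = 0.978), and Egr3 like Pacs2 (r = 0.974). Jund was most like Slfn4 (r = 0.984), Junb like Dtx3l (r = 0.978), Ier2 like Micall2 (r = 0.979), and Fosb had the weakest likeness, to Scamp5 (r = 0.958).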

How the data were processed

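The values are read counts per gene that the authors made and deposited without normalization, as whole numbers for 24015 genes by symbol in 10 libraries. The submitters' processing notes name TopHat2, Subread, DESeq and mm9, with no role given. Libraries were grouped by the agent on their labels. In R 4.3.3, edgeR 4.0.16 (filterByExpr, TMM, quasi-likelihood test) was fitted once to all 10 libraries with 1 coefficient per group, and each of 10 comparisons was adjusted by the Benjamini-Hochberg method over 12971 genes. The code was tested on simulated counts. Alternatives were DESeq2 1.42.0, total-count scaling, no filter, the replicate number as a block, a fit without DMSO for inhibitor pairs and leaving out each library. The members and lists were chosen with earlier results of these data known, and 1 planned marker gene is not reported here. Besides the members, at most the 4 called genes of a list with the largest log2 fold change in a comparison are named, or its 2 most abundant where none was called, and for each member the genes most like it whose mean CPM was 5 or more. Exon lengths are from GENCODE M21 (GRCm38) and promoter windows from RefSeq (GRCm38.p6). Figures were drawn in Python 3.11.15 with matplotlib 3.10.9.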

Additional observations from a re-analysis of the deposited data

How the results depend on the processing

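Of 1460 alternative values of the members, 1371 kept their side of the threshold, 51 lost a call and 36 gained one with the same sign. The other 2 gained a call with the opposite sign. Of the 1371, 39 changed sign without a call on either side. The log2 fold change of Fosb ran from -1.89 (without DMSO replicate 1) to 3.07 (without DMSO replicate 2) for EPZ5676 against DMSO, and from -1.18 (without MI-2-2 replicate 2) to 3.80 (without DMSO replicate 2) for MI-2-2 against DMSO. Fosb stood at 0.350 and 10.9 CPM in those control libraries.

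Leaving out 1 library at a time, where the lone library left in a group is taken to vary like the other groups, moved the number of members called as follows. It was 6 to 10 for EPZ5676 against DMSO (the 10, without DMSO replicate 1, include Fosb called lower) and 8 to 9 for MI-2-2 against DMSO. For MM-401 against DMSO it was 0 to 1 (Fosb called lower), and for iBET against DMSO 0 (without iBET replicate 2) to 4 (without DMSO replicate 1, with Fosb called lower among them). Against MM-401 it was 2 to 7 for EPZ5676, 4 to 9 for MI-2-2 and 0 to 1 for iBET. Against iBET it was 2 to 6 for EPZ5676 and 4 to 10 for MI-2-2. The lowest numbers came without a library of a group compared, which leaves that group with 1 library. The number of all genes called then ran from 0 to 1368 for MM-401 against DMSO, 2633 to 6808 for EPZ5676, 2772 to 7197 for MI-2-2 and 150 to 3720 for iBET. Against MM-401 it ran from 1556 to 6274 for EPZ5676, 1729 to 6535 for MI-2-2 and 183 to 3207 for iBET, against iBET from 2248 to 6755 for EPZ5676 and 2096 to 6782 for MI-2-2, and for MI-2-2 against EPZ5676 from 0 to 111. The highest came without a DMSO library.

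DESeq2 called 297 genes for MM-401 against DMSO where edgeR called 0, 2829 for iBET against DMSO (edgeR 1806), 2294 for iBET against MM-401 (edgeR 1484) and 155 for MI-2-2 against EPZ5676 (edgeR 2). The last count was 0 with total-count scaling, 7 without the filter and 126 in the fit without DMSO, which gave 3232 for iBET against MM-401. Why these counts moved was not tested.

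With the replicate number as a block, 6180 genes were called for EPZ5676 against DMSO (4942 without it), 6557 for MI-2-2 against DMSO (5373 without it), 3088 for iBET against DMSO, 2470 for iBET against MM-401 and 4 for MI-2-2 against EPZ5676. Members called with the block were 9 for EPZ5676 and 9 for MI-2-2 against DMSO, and 2 for iBET (Egr3 and Ier2). Differences between same-numbered libraries correlated between groups with r from 0.303 to 0.704, all 10 above 0.1. The labels give the numbers no meaning beyond duplicates, and with 2 libraries a group the pairing was not taken as given.

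Limits apply to all values. Each group had 2 libraries, at 1 time and 1 dose, and the control libraries differed more than those of any other group. Egr3 rested on 10 and 5 reads in DMSO, so its fold change there carries the widest counting error. Total RNA does not separate synthesis from decay of these short-lived transcripts.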

Other observations

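Markers of T, B and erythroid cells and of megakaryocytes summed to less than 10 CPM in every library. The T-cell markers (6 listed, 2 tested) summed to 1.61 to 4.98 CPM and the erythroid markers (5 listed, 1 tested) to 0.694 to 1.32 CPM, in each case over the 10 libraries. The B-cell markers (5 listed) summed to 0.133 to 8.24 CPM. Of these Cd79b, a part of the B-cell receptor, averaged 3.02 CPM in DMSO, 7.04 CPM with EPZ5676 and 0.124 CPM with iBET, and was called in both comparisons. The megakaryocyte markers (4 listed) summed to 0.612 to 8.97 CPM, with the highest sums for EPZ5676 and MI-2-2, where Pf4, a platelet chemokine gene, was called higher. The mast cell and basophil markers (6 listed) summed to 133 CPM in DMSO replicate 2 and to 23.4 to 54.4 CPM in the other 9 libraries, and Hdc, which makes histamine, accounted for 118 CPM in DMSO replicate 2. Gata2, a factor of early progenitors and mast cells, averaged 2.84 CPM in DMSO and was called lower with EPZ5676 (0.167 CPM) and MI-2-2 (0.160 CPM). Of the stroma and endothelium markers (6 listed, 3 tested), Pecam1 averaged 33.4 CPM in DMSO and was called lower with EPZ5676 (7.05 CPM), MI-2-2 (10.3 CPM) and iBET (7.82 CPM). Col1a1, a collagen gene, averaged 0.280 CPM in DMSO and was called higher with EPZ5676 (12.5 CPM) and MI-2-2 (7.14 CPM), as was Kdr, a receptor of endothelial cells, which had no read in DMSO (0.970 and 2.02 CPM with EPZ5676, 0.433 and 0.329 CPM with MI-2-2). The part of these cell types in the results on the immediate early factors was not tested.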
